A study of Mus musculus with 8 samples.

Results

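Imprinted genes are expressed mainly from a single parental allele, and many of them set the pace of growth before and after birth. Of the 10 imprinted genes and noncoding RNAs described here, H19, Meg3, Rian and Mirg are transcribed from the maternal allele into RNAs that are not translated, while Dlk1, Peg3, Plagl1, Ndn and Mest are paternally expressed and Grb10 is maternally expressed in most tissues of the mouse. H19 is abundant in fetal muscle and in differentiating myoblasts, and the Dlk1-Dio3 cluster that holds Dlk1, Meg3, Rian and Mirg is known for its expression in quiescent muscle stem cells (MuSCs).

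The genes were chosen by name, with earlier results of these data known, and all 10 had a row among the 55487 gene identifiers of the deposited table. MuSCs were sorted by FACS from hindlimb muscles of aged male C57BL/6JRj mice, 23 to 24 months old according to the methods for the MuSC culture assay, and kept in growth medium for 72 hours. The sort took cells with CD34 and α7-integrin on their surface and left out those with the endothelial marker CD31, the immune markers CD45 and CD11b, or Sca1, which fibro-adipogenic cells carry. The cells received either nicotinamide and pyridoxine in combination (NAM/PN, given as 1 mM in the labels without separate concentrations) or the 1% DMSO vehicle. The cells of 8 mice were combined into 4 pools of 2 mice, each pool was cultured under both conditions, and 3′ end sequencing of its RNA gave 4 vehicle and 4 NAM/PN libraries. All libraries therefore came from aged, sorted and cultured cells with no gene deleted, and freshly isolated cells were not among them. Because the strain is inbred and reads were counted per gene, the parental allele that produced a transcript could not be read from these data.

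Values are given as CPM, counts per 1000000 of the normalized library size. The 3′ protocol reads the end of each transcript, so CPM was not divided by gene length and levels of different genes are compared on this per-transcript scale. A member was called when its adjusted p-value over all 12060 tested genes, from the quasi-likelihood F test of edgeR after Benjamini-Hochberg correction, was under 0.05. Since libraries with the same pool number came from the same mice, each comparison was also fitted with a replicate block for the pool.

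The libraries held 6472484 to 10163101 counts each. A floor of detection of 3 counts was equal to 0.280 to 0.457 CPM, depending on the library. The 10 genes together took 0.171% to 0.493% of the counts of a library. The most counted gene, CT010467.1, took 18.7% of the counts of vehicle pool 3 and between 5.22% and 11.6% in the other 7 libraries. Among MuSC markers, Pax7 was at 97.3 to 247 CPM and Myod1 at 1038 to 1561 CPM over the 8 libraries. Endothelial and immune cell markers summed to at most 7.25 and 7.58 CPM in any library. Of 10 fibroblast markers 6 had counts, among them Col3a1 at 53.7 to 166 CPM and Col1a1 at up to 1032 CPM, and Pdgfra, Lum, Dpt and Mfap5 had none. Of 8 mural markers 7 had counts, among them Acta2 at 46.9 to 534 CPM, and Myh11 had none.

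Across the 4 pools, Mest was the member called at the adjusted threshold, and its fitted expression was 3.04-fold lower with NAM/PN. H19 expression was 2.05-fold lower and passed the threshold when the pool was taken as a block, and Grb10 expression was lower in every NAM/PN library than in any vehicle library without passing the threshold in either fit. Of the other members, Peg3, Plagl1, Ndn and Meg3 were not called, and Rian, Mirg and Dlk1 were too sparsely counted to be tested. Thus 1 of 7 tested members was called lower and 0 higher, where 0.995% of all tested genes were called lower and 1.28% were called in either direction. With the replicate block, 2 of 7 were called lower, where 1.02% of all tested genes were. Without the block, 3 of 7 were called lower when vehicle pool 3 was left out and 2 of 7 when NAM/PN pool 4 was, where 0.924% and 1.06% of the genes tested in those fits were. Over the 12 fits without a library or pool, Mest was called in 12, H19 in 2, Grb10 in 1 and the other tested members in 0. In these fits 0.305% to 1.06% of the tested genes were called lower. An unadjusted p under 0.05 by edgeR was found for 3 of 7 tested members (42.9%), against 9.28% of all tested genes. All NAM/PN libraries were below all vehicle libraries for 3 of 7 tested members and for 4.42% of all tested genes. No member had all NAM/PN libraries above all vehicle libraries, against 2.79% of all tested genes, and 7.21% did not overlap in either direction. The members were chosen with earlier results of these data known, so setting them beside these shares is a description and not a test.

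H19 and Mest also host microRNAs, and their mature sequences from RefSeq (GRCm38.p6) are shown because they are made from transcripts of the 2 members with the lowest fitted log2 fold changes. Capitals mark the seed, bases 2 to 8. The miR-675 pair lies on chromosome 7 on the minus strand, the 5p arm at chr7:142577112-142577133 and the 3p arm at chr7:142577078-142577099, in an exon of 3 of the 7 annotated H19 transcripts. The miR-335 pair lies on the plus strand of chromosome 6, the 5p arm at chr6:30741314-30741336 and the 3p arm at chr6:30741354-30741375, inside Mest but in an exon of 0 of its 11 annotated transcripts, and is therefore intronic. The 4 seeds differ from each other.
mmu-miR-675-5p: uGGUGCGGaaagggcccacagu
mmu-miR-675-3p: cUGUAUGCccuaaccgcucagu
mmu-miR-335-5p: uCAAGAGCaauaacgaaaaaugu
mmu-miR-335-3p: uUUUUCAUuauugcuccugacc
The separately annotated microRNA genes Mir675 and Mir335 had 0 counts in all libraries, and a 3′ poly(A) protocol is not made to count them, so the mature microRNAs were not measured here.

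Mest (ENSMUSG00000051855, GRCm38 chromosome 6 from 30723547 to 30748465, plus strand) encodes an α/β-hydrolase fold protein of the endoplasmic reticulum. In vehicle pools 1 to 4 it was at 176, 258, 208 and 332 CPM, and in the NAM/PN cultures of the same pools at 62.2, 101, 64.1 and 92.7 CPM. The lowest vehicle library thus stood above the highest NAM/PN library, and within pools the NAM/PN culture had 35.3%, 39.1%, 30.9% and 27.9% of the vehicle value. Vehicle libraries averaged 243 ± 67.8 CPM and NAM/PN libraries 79.9 ± 19.6 CPM (SD, n = 4 each). Mest had a log2 fold change of -1.61 (standard error 0.23, 95% interval -2.08 to -1.13, adjusted p = 0.000578 by edgeR after Benjamini-Hochberg correction). Mest ranked 20th of the 12060 tested genes by p-value. The end of Mest overlaps the end of Copg2, which runs on the opposite strand and is not called, over 912 bases. How the counting treated strand is not given in the sources used here, so reads in that overlap cannot be assigned with certainty.

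H19 (ENSMUSG00000000031, chromosome 7 from 142575529 to 142578143, minus strand), a noncoding RNA that gives rise to miR-675 and can bind let-7 microRNAs, had the highest expression of the members. It ranked 23rd of all tested genes by mean vehicle level. Its vehicle values were 1564, 2552, 1592 and 3339 CPM in pools 1 to 4, and its NAM/PN values were 573, 1362, 916 and 1555 CPM. The groups did not overlap, but the highest NAM/PN library and the lowest vehicle library were close, at 1555 and 1564 CPM. Pools 2 and 4 were the highest under both conditions, and within pools the NAM/PN value was 36.7%, 53.4%, 57.5% and 46.6% of the vehicle value.

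H19 averaged 2262 ± 852 CPM in the vehicle group and 1102 ± 442 CPM in the NAM/PN group (SD, n = 4 each). Without the block, the log2 fold change was -1.04 (standard error 0.27, adjusted p = 0.0666 by edgeR after Benjamini-Hochberg correction). In the fit with the replicate block it was -1.06, its standard error was 0.16, and the adjusted p in the same edgeR test was 0.00137. Across all tested genes, deviations of same-pool libraries from their group means correlated only between -0.0332 and 0.0313. Without the block, H19 had an adjusted p of 0.0297 when vehicle pool 3 was left out and 0.0205 when NAM/PN pool 4 was, so its call depended on the fit and on single libraries.

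Grb10 (ENSMUSG00000020176, chromosome 11 from 11930508 to 12038683, minus strand) encodes an adaptor protein that binds the insulin and IGF1 receptors and dampens their signaling. It was expressed at 172, 187, 119 and 172 CPM in vehicle pools 1 to 4 and at 102, 107, 98.2 and 102 CPM with NAM/PN. The NAM/PN libraries were close to each other and all below the lowest vehicle library, pool 3. The log2 fold change was -0.67 (standard error 0.19, 95% interval -1.06 to -0.27) with an adjusted p of 0.102, or 0.154 with the replicate block, by edgeR after Benjamini-Hochberg correction. Without vehicle pool 3, the log2 fold change of Grb10 was -0.79 and the adjusted p was 0.0220, and H19 also passed with an adjusted p of 0.0297. Over the 12 fits without a library or pool, the adjusted p of Grb10 was between 0.0220 and 0.507 by edgeR, and Grb10 was called in 1.

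**Figure D1:**
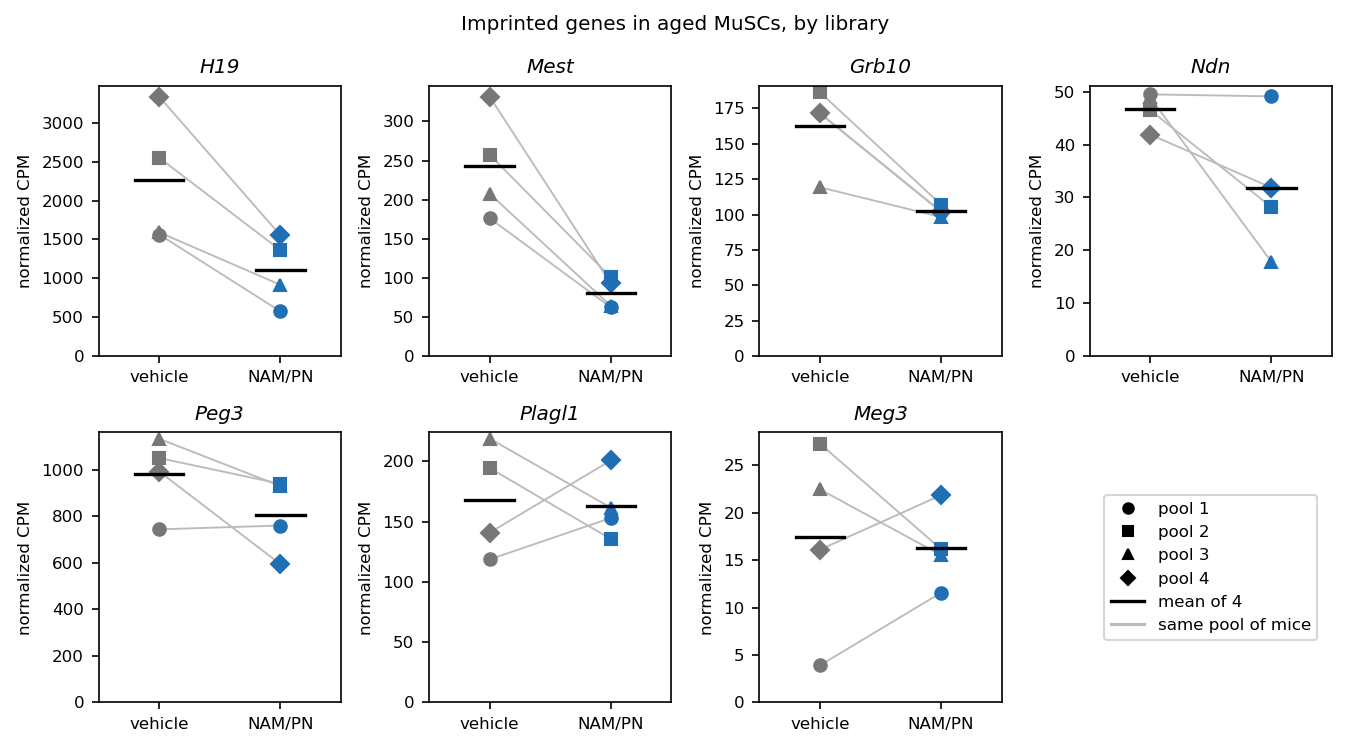
Normalized CPM (vertical axes, from 0) of the 7 tested members with vehicle (grey) and NAM/PN (blue), 1 panel per gene; each symbol shape is a pool of 2 mice, grey lines join cultures of the same pool and black bars are means of 4 libraries. In Mest, H19 and Grb10 all NAM/PN libraries lie below all vehicle libraries, whereas the groups overlap for Ndn, Peg3, Plagl1 and Meg3.

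Ndn (ENSMUSG00000033585, chromosome 7 from 62346569 to 62350262), which encodes the growth suppressor necdin of the Prader-Willi region, was at 49.5, 46.5, 48.9 and 41.9 CPM in vehicle pools 1 to 4. With NAM/PN it was at 49.1, 28.1, 17.8 and 31.8 CPM. The value of pool 1 was nearly the same under both conditions, and the other 3 NAM/PN libraries were below every vehicle library. The log2 fold change of Ndn was -0.56 (standard error 0.30) and its adjusted p was 0.643 by edgeR after Benjamini-Hochberg correction.

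The zinc finger transcription factors Peg3 and Plagl1 were expressed and not called. Peg3 (ENSMUSG00000002265, chromosome 7 from 6703892 to 6730431), which is present in many adult stem and progenitor cells, was the member with the next highest level after H19 and ranked 75th of all tested genes with vehicle. Its values were 744, 1051, 1134 and 993 CPM with vehicle and 761, 940, 931 and 595 CPM under NAM/PN, with overlapping groups and a log2 fold change of -0.28 (95% interval -0.65 to 0.08). Plagl1 (ENSMUSG00000019817, chromosome 10 from 13060504 to 13131694), which controls a network of imprinted genes, was at 119, 195, 219 and 141 CPM with vehicle and 153, 136, 162 and 201 CPM under NAM/PN. It was higher with NAM/PN in pools 1 and 4 and lower in pools 2 and 3, with a log2 fold change of -0.05 (95% interval -0.48 to 0.39). These intervals leave room for moderate differences in either direction for Plagl1 and for a decrease in Peg3.

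All 7 tested members had a fitted log2 fold change below 0 without the block, from -1.61 for Mest to -0.05 for Plagl1, with a median of -0.56. Of all 12060 tested genes, 6056 were below 0 and the median was -0.0022. The sign was not stable for Meg3, which was at 0.15 with the replicate block, nor for Plagl1, which turned positive without vehicle pool 3. In order of mean vehicle level, H19 was followed by Peg3 (981 CPM), Mest (243 CPM), Plagl1 (168 CPM), Grb10 (162 CPM), Ndn (46.7 CPM) and Meg3 (17.5 CPM). Over the vehicle libraries, the values of Plagl1 overlapped with those of Mest and of Grb10, and those of Mest and Grb10 overlapped, although Mest was above Grb10 within each vehicle library. With NAM/PN, Mest came after Plagl1 and Grb10 by its mean, and its 62.2 to 101 CPM did not overlap with the 136 to 201 CPM of Plagl1 but did with the 98.2 to 107 CPM of Grb10, although Mest was below Grb10 within each NAM/PN library.

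**Figure D2:**
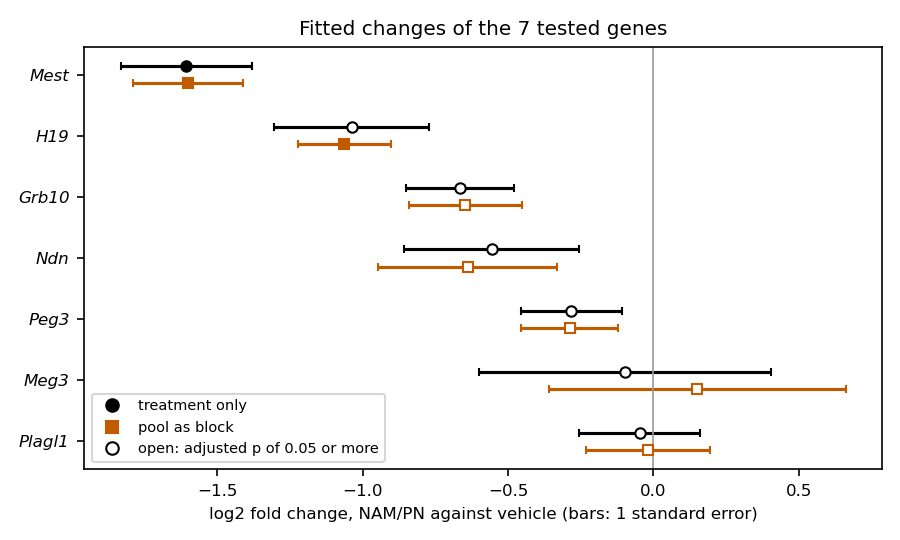
Fitted log2 fold change of NAM/PN against vehicle (horizontal axis, bars 1 standard error) for the 7 tested members, without (black circles) and with (orange squares) the pool as a replicate block; filled symbols have an adjusted p under 0.05. Mest is filled in both fits, H19 only with the block, where its standard error is 0.16 rather than 0.27, and Meg3 lies on either side of 0.

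The Dlk1-Dio3 cluster on chromosome 12 was expressed at low levels in these cultured cells. Its noncoding RNA Meg3 (ENSMUSG00000021268, 109541001 to 109571726), a tumor suppressor RNA, was the member of the cluster that passed the filter on low counts. It was at 3.91, 27.3, 22.5 and 16.1 CPM in vehicle pools 1 to 4 and at 11.6, 16.2, 15.5 and 21.9 CPM with NAM/PN. Vehicle pool 1 was far below the rest and the groups overlapped, with a log2 fold change of -0.10 and a wide 95% interval of -1.15 to 0.95.

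Rian (109603940 to 109661716), which hosts snoRNAs and microRNAs, had 10, 0, 4 and 5 raw counts in vehicle pools 1 to 4 and 0, 23, 0 and 0 with NAM/PN. Mirg (109729764 to 109749460), the host of a large microRNA cluster, had 0, 3, 0 and 30 counts with vehicle and 27, 6, 0 and 39 with NAM/PN. Dlk1 (109452823 to 109463336), a transmembrane relative of the Notch ligands, had 11, 0, 0 and 5 counts with vehicle and 9, 0, 0 and 13 with NAM/PN. A count of 0 allows up to 0.280 to 0.457 CPM, depending on the library. Each of these 3 genes was thus found in some libraries of both conditions and at 0 in others. Within pools, Mirg had more CPM with NAM/PN in 3 pools and none under either condition in pool 3, whereas Rian was lower with NAM/PN in 3 pools and higher in 1, and Dlk1 was lower in 1 and higher in 1. Two-sided exact permutation tests of CPM, without the pairing by pool, over the 70 assignments of libraries gave p = 1 for Rian, p = 0.286 for Mirg and p = 1 for Dlk1, with 0.0286 as the smallest value this design allows. At these counts no difference was detectable by this test.

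**Figure D3:**
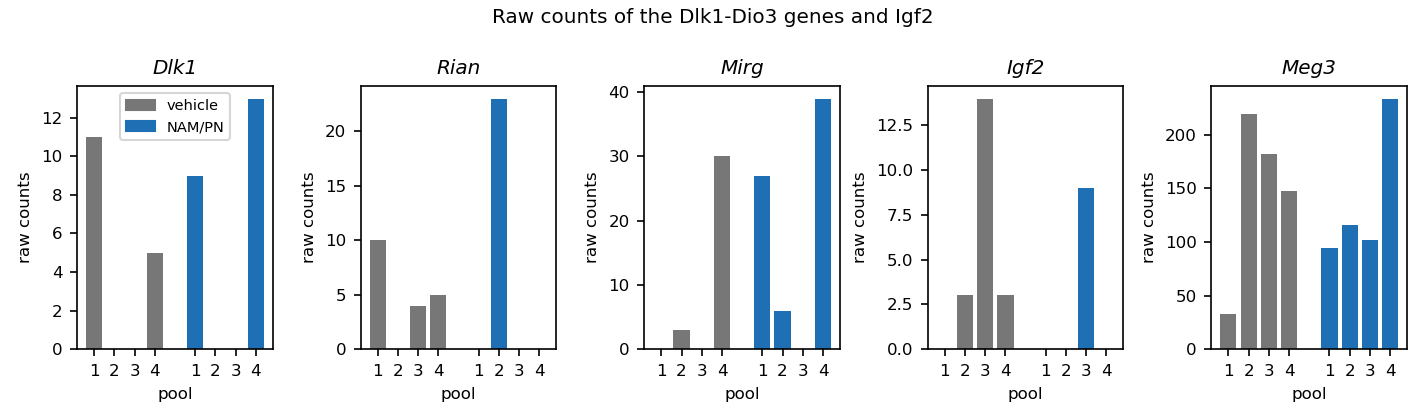
Raw counts (vertical axes, each panel with its own scale from 0) in vehicle (grey) and NAM/PN (blue) libraries of pools 1 to 4 for Dlk1, Rian, Mirg, Igf2 and Meg3. Dlk1, Rian and Mirg reach at most 13, 23 and 39 counts and are at 0 in several libraries, while Meg3 is between 33 and 234 counts.

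The promoters of Mest and Grb10 were examined because both genes use alternative start sites with different imprinting. RefSeq windows of 300 bases, from 250 before to 50 after a start site, were at hand for 9 of the 10 members, with 13 windows in all. They were searched on both strands for TGCCGC, which reads GCGGCA from the other strand and is the motif that the imprint-maintaining factor ZFP57 recognizes, and also for CAGCTG, an E-box of the kind bound by MYOD1 and myogenin. TGCCGC was found in 5 of 13 member windows and in 11.6% of all 32851 windows, and CAGCTG in 1 of 13 and in 16.3%. Many promoters of imprinted genes are rich in CpG. The member windows had a median of 11 CpG against 7 over all windows, and the reason was not tested. Of the 5 windows with TGCCGC, 2 belong to Mest start sites 3 bases apart and are nearly the same sequence, and the other 3 belong to Meg3, Plagl1 and Grb10. The windows below are from GRCm38.p6, written 5′ to 3′ on the strand of the gene, with the matches in capitals. The first Mest window is chr6:30733256-30733555 and the other is chr6:30737800-30738099, both on the plus strand, and the Grb10 window is chr11:12037371-12037670 on the minus strand.
Mest upstream start: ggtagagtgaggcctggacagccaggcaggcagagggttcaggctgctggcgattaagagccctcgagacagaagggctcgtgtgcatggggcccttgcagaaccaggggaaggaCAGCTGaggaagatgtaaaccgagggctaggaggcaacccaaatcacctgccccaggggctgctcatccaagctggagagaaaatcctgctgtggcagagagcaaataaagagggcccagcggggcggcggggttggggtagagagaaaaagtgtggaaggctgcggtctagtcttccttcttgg
Mest downstream start: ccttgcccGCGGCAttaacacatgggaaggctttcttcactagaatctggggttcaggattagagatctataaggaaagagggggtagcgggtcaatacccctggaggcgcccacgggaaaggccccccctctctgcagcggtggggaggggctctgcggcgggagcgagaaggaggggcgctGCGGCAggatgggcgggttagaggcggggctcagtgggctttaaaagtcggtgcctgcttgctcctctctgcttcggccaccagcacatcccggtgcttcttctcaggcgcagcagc
Grb10 upstream start: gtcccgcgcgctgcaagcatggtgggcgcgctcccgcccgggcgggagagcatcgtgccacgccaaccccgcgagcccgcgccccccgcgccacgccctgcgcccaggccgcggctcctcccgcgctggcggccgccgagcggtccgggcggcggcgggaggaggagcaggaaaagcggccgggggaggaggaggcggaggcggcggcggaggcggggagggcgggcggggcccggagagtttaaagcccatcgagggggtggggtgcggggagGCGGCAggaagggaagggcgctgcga
The upstream Mest window held 8 CpG and the downstream window 17, and the upstream Grb10 window held 45 with a GC content of 80.0%. The downstream Grb10 window (chr11:12027922-12028221, not printed) held 9 CpG with a GC content of 52.3% and no match to either motif. Since reads came from the 3′ end, the counts do not show which start site was used, and a match to a motif is a description of the letters and not a binding site.

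The imprinted genes outside the 10 members were described as a list. Of 68 further imprinted genes listed, 67 were found, 14 had no count in any library and 41 were tested. By edgeR after Benjamini-Hochberg correction, 1 of the 41 was called lower and 0 higher, where 0.995% and 0.282% of all tested genes were. An unadjusted p under 0.05 was found for 5 of 41 (12.2%), against 1119 of all tested genes (9.28%), and these 5 (Cdkn1c, Cobl, Gnas, Cd81 and Pon3) all had a log2 fold change below 0. All NAM/PN libraries were below all vehicle libraries for 5 of 41 and above them for 0, against 4.42% and 2.79% of all tested genes. In all, 22 had a log2 fold change below 0 and 19 above, with a median of -0.05. With the replicate block 0 were called, where 1.29% of all tested genes were. With the DESeq2 Wald test 1 was, where 2.75% of the genes with an adjusted p in that test were called in either direction.

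The called gene was Cdkn1c, which encodes the cyclin-dependent kinase inhibitor p57 and lies in the Kcnq1 cluster next to the H19-Igf2 cluster. It was at 37.9, 25.2, 22.7 and 68.2 CPM in vehicle pools 1 to 4 and at 5.17, 9.48, 16.6 and 5.14 CPM with NAM/PN, with all vehicle libraries above all NAM/PN libraries. The log2 fold change of Cdkn1c was -2.09 (standard error 0.46), with an adjusted p of 0.0248 without and 0.0586 with the replicate block by edgeR after Benjamini-Hochberg correction. Its adjusted p rose over the threshold without vehicle pool 1 (0.0692), vehicle pool 4 (0.243), NAM/PN pool 1 (0.102), NAM/PN pool 2 (0.0697) or NAM/PN pool 4 (0.0585). Igf2, the growth factor gene that shares enhancers with H19, had 29 counts in all 8 libraries together and was not tested. In the cluster of Mest, Copg2 had 2774 counts in total and a log2 fold change of -0.23 (adjusted p = 0.912 by edgeR after Benjamini-Hochberg correction), and Klf14 was not tested because of low counts. Herc3 and Nap1l5 had been listed with them but lie in a separate domain of chromosome 6, where Herc3, at 2.35 to 5.33 CPM with vehicle and 0 to 3.35 CPM under NAM/PN, had a log2 fold change of -1.94 (adjusted p = 0.858 by edgeR) that was not called. Nap1l5 was not tested. In the Grb10 cluster, Cobl averaged 21.5 ± 2.24 CPM in the vehicle group and 7.99 ± 3.68 CPM in the NAM/PN group (SD, n = 4 each), and its groups did not overlap, with an adjusted p of 0.209 in the same edgeR test.

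**Figure D4:**
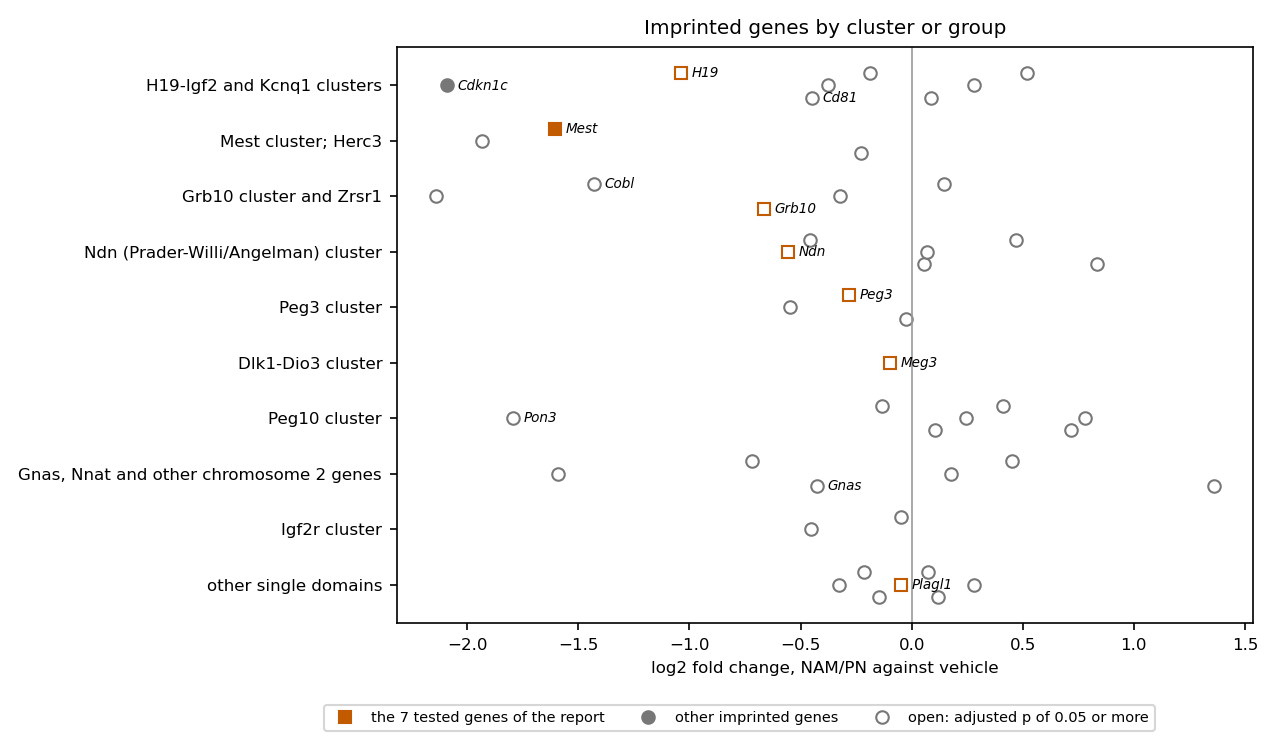
Log2 fold change of NAM/PN against vehicle (horizontal axis) for the 7 tested members (orange squares) and 41 other tested imprinted genes (grey circles), arranged by cluster or group; filled symbols have an adjusted p under 0.05 without the block, and members and genes with p under 0.05 are named. Filled symbols are Mest and Cdkn1c alone, and genes lie on both sides of 0 in 6 of the 10 rows, of which several group genes of separate domains.

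The genes through which the members are known to act were described in the same way. Grb10 acts on insulin and IGF signaling, of which 12 of 16 listed genes were tested and 0 called, with a median log2 fold change of 0.0032. The smallest p-value was that of Irs1, a receptor substrate, at 103 CPM with vehicle and 144 CPM under NAM/PN (adjusted p = 0.362 by edgeR after Benjamini-Hochberg correction). For Notch signaling, to which Dlk1 is related, 12 of 13 genes were tested and 0 called, and the smallest p-value was that of the ligand gene Dll1 (log2 fold change -0.75, adjusted p = 0.463 in the same edgeR test). Among 6 partners of necdin and Peg3 proteins, 0 were called, and E2f1 had the smallest p-value (adjusted p = 0.715 in the same edgeR test). These 3 lists had 1, 2 and 0 genes with an unadjusted p under 0.05, where 9.28% of all tested genes had. Over all tested genes 1.28% were called, so 0 calls in lists this short lie near that share.

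Of the let-7 and miR-675 targets, 8 of 11 were tested and 1 was called, Hmga2, which encodes a chromatin protein of proliferating and fetal cells and is a well-known let-7 target. Hmga2 rose with NAM/PN, from 454, 419, 414 and 360 CPM in vehicle pools 1 to 4 to 781, 695, 631 and 716 CPM. All NAM/PN libraries were above all vehicle libraries, and the log2 fold change was 0.78 (standard error 0.15, adjusted p = 0.00883 by edgeR after Benjamini-Hochberg correction, or 0.0187 in the blocked fit), where 0.282% of all tested genes were called higher. Hmga2 lost its call without vehicle pool 4 (adjusted p = 0.0671 in edgeR) or NAM/PN pool 1 (adjusted p = 0.0547 in edgeR). Of the 8 tested targets, 3 (37.5%) had an unadjusted p under 0.05 by edgeR, against 9.28% of all tested genes. Beside Hmga2 these were Hmga1 and Igf2bp2, with log2 fold changes of 0.85 and 1.06 (adjusted p of 0.322 and 0.241 by edgeR). In all, 5 of the 8 were above 0 and 3 below. The perfect complement of the let-7 seed, CTACCTC, occurred in 0 of the 7 annotated H19 transcripts, against 17.5% of 8803 transcripts within 10% of the length of an H19 transcript of 2286 bases. This says only that these letters are not in the annotated transcripts. Of 21 genes for imprint maintenance and Polycomb repression, 19 were tested and 0 called, where 1.28% of all tested genes were, and 1 had an unadjusted p under 0.05. The smallest p-value among them was that of Trim28, the corepressor that works with ZFP57, at 398 to 417 CPM with vehicle and 526 to 734 CPM under NAM/PN (adjusted p = 0.130 by edgeR). Trim28 was called with the DESeq2 Wald test (adjusted p = 0.0104) and under none of the other alternatives run.

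Genes of myogenic differentiation were lower with NAM/PN in the same libraries. In edgeR's test 11 of 16 were called lower (0.995% of all tested genes) and 0 higher, or 13 lower with the replicate block (1.02% of all tested genes), and the median of their log2 fold changes was -2.33. Without both libraries of pool 2, 7 were called lower, where 0.305% of the genes tested in that fit were. The 11 genes were Tnnc2, Acta1, Myl1, Mymk, Mymx, Mylpf, Myh3, Myog, Mef2c, Tnnt3 and Cdkn1a, in order of log2 fold changes from -3.03 to -1.37. All 16 listed genes together summed to 3291 to 5332 CPM with vehicle and 1058 to 1830 CPM under NAM/PN. Myog, which encodes myogenin, was at 680, 1042, 566 and 1428 CPM in vehicle pools 1 to 4 and at 108, 237, 173 and 277 CPM with NAM/PN. Its highest values were in pools 4 and 2 under both conditions, as for H19. MuSC markers had 0 of 8 tested genes called, where 1.28% of all tested genes were. The smallest p among them was that of desmin (Des), at 631 to 1060 CPM with vehicle and 501 to 728 CPM under NAM/PN (adjusted p = 0.460 by edgeR). The summed MuSC markers, at 2919 to 3373 CPM with vehicle and 2339 to 2929 CPM under NAM/PN, overlapped narrowly. In bulk RNA, fewer cells of a kind and less RNA per cell cannot be told apart, and the part of the differentiation state in the lower values of Mest and H19 was not tested.

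Among markers of other cells, Acta2, which mural cells and differentiating myoblasts both express, was lower (log2 fold change -2.38, adjusted p = 0.000147), as was the fibroblast collagen gene Col3a1 (-1.17, adjusted p = 0.00255), both by edgeR after Benjamini-Hochberg correction. The other 2 tested fibroblast genes, Col1a1 and Smoc2, had log2 fold changes above 0, of 4.97 and 0.15, and were not called (adjusted p of 0.0709 and 0.993 by edgeR). Mural markers had 1 of 3 tested genes called (0.995% of all tested genes were called lower) and summed to 285 to 611 CPM with vehicle and 95.9 to 156 CPM under NAM/PN. Fibroblast markers also had 1 of 3 tested genes called, against the same share of all tested genes, and summed to 155 to 211 CPM with vehicle and 65.4 to 1129 CPM under NAM/PN. Tendon cell markers had 0 of 2 tested genes called, where 1.28% of all tested genes were, and summed to 239 to 335 CPM and 203 to 274 CPM. Mkx had the smallest p among them, at 5.91 ± 3.06 CPM with vehicle and 0.598 ± 0.420 CPM under NAM/PN (SD, n = 4 each), and its groups did not overlap (adjusted p = 0.470 from the edgeR fit). Of immune cell markers, Cd68 was the gene tested, at 0.979 to 7.58 CPM with vehicle and up to 7.14 CPM under NAM/PN, and it was not called (adjusted p = 0.976 by edgeR). The sort was set to remove endothelial, immune and Sca1+ fibro-adipogenic cells. The part of any such cells that remained, or of mural and tendon cells, in the members' values was not tested.

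The genes most like Mest over the 8 libraries, by the root mean square (RMS) difference of log2 CPM centred on each gene's mean, were Cd200 (0.200), Tnnt2 (0.244) and Synpo2l (0.245), against a median of 1.03 over all tested genes. Tnnt2 encodes cardiac troponin T, which embryonic and regenerating skeletal muscle also expresses, Cd200 a cell surface glycoprotein and Synpo2l an actin-associated protein of striated muscle. For H19, whose profile was added because of its call with the block, the nearest genes were Tmem119 (0.209), Iffo1 (0.211) and the small heat shock protein gene Hspb8 (0.246), against a median of 0.924. Likeness over 8 libraries in 2 conditions rests in large part on the shared difference between conditions and is given as a description.

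**Figure D5:**
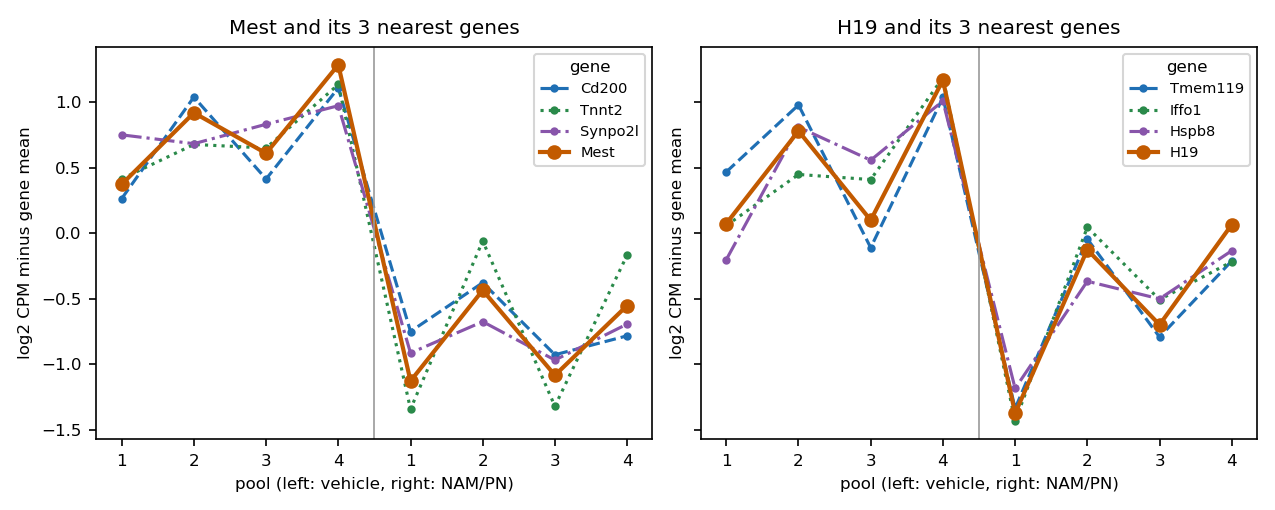
Log2 CPM minus the gene's mean (vertical axis) in vehicle pools 1 to 4 (left of the line) and NAM/PN pools 1 to 4 (right) for Mest and H19 (thick orange) and the 3 genes with the most similar profile (thin lines). Mest runs from 1.29 in vehicle pool 4 to -1.13 in NAM/PN pool 1, and H19 from 1.17 to -1.37 in the same libraries.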

How the data were processed

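RNA from 8 MuSC cultures (4 vehicle and 4 NAM/PN) was prepared with a QuantSeq 3′ forward kit from 30 ng. What the authors deposited are raw counts, the number of reads on each gene, neither normalized nor filtered. According to the methods and labels, reads were demultiplexed with Bcl2FastQ, aligned to GRCm38 with RNASTAR and counted with htseq-count (HTSeq 2.16.2 in the submitters' processing notes). The columns were matched to samples by treatment and pool in the labels.

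Of 55487 identifiers, 55141 were matched to symbols and positions in GENCODE M21 (GRCm38), 19244 had counts and 12060 passed filterByExpr (minimum count 10, minimum total count 15). TMM normalization was applied to the counts, which were compared with edgeR 4.0.16 (glmQLFit and glmQLFTest, Benjamini-Hochberg adjustment over all tested genes, threshold 0.05) in R 4.3.3, as the methods describe for mouse muscles, without a block. Standard errors were derived from the F statistic and intervals are 95%. Log2 CPM used a prior count of 2. The pool was added as a replicate block, because the same number names the same mice. Deviations of same-pool libraries from their group means correlated between -0.0332 and 0.0313 across genes. Other alternatives were DESeq2 1.42.0, its size factors, no filter, a robust fit, removal of the most counted gene, a prior count of 0.5, and leaving out each library and pool. Promoter and microRNA sequences were taken from RefSeq (GRCm38.p6). Figures were drawn with matplotlib 3.10.9. Floors cover counting error only.

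The members and the gene lists were chosen with earlier results of these data known. Named genes were all members, called genes of the other lists or otherwise the gene with the smallest p in each list, imprinted genes in the cluster of a called member, and the 3 genes nearest to a called member. Of the 11 called differentiation genes Myog was singled out. Cobl, Cd81, Gnas, Pon3, Kcnq1ot1, Hmga1, Igf2bp2, Col1a1, Smoc2, Pax7, Myod1, the genes at 0, CT010467.1 and the neighbors of H19 were named after their values were seen. The result of 1 marker list is not reported here.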

Additional observations from a re-analysis of the deposited data

Results flagged for a closer look

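In 52 groups of 4 libraries (CPM of each member, summed CPM of each list and the share of the most counted gene), 5 had a library that stood apart from the other 3 by Dixon's test at its 95% critical value, where chance flags about 1 in 20. The share of counts on CT010467.1 was 18.7% in vehicle pool 3 and 9.09% to 9.59% in the other vehicle libraries. Rian was at 3.21 CPM in NAM/PN pool 2, from 23 counts, and at 0 in the other NAM/PN libraries. Mirg was at 3.27 CPM in vehicle pool 4, from 30 counts, and at 0 to 0.372 CPM in the other vehicle libraries. Endothelial markers summed to 6.53 CPM in vehicle pool 4, against 0 to 0.711 CPM in the other vehicle libraries. They summed to 7.25 CPM in NAM/PN pool 2, which is also the NAM/PN library with Rian counts, against 0 to 0.0934 CPM in the others. Both Rian and Mirg were below the filter on low counts, and Mest was called without each of these libraries. What sets them apart was not tested.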

How the results depend on the processing

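Mest remained called and lower in all 18 alternatives, with a log2 fold change between -1.74 and -1.43 and an adjusted p of at most 0.0189. H19 was lower in all 18 (-1.25 to -0.80) and called in 4 of them: with the replicate block, without a filter on low counts, without vehicle pool 3 and without NAM/PN pool 4 (adjusted p 0.0205). Its adjusted p was 0.164 with DESeq2 and 0.323 with the robust fit. Grb10 was lower in all 18 (-0.79 to -0.59) and called with DESeq2 (adjusted p 0.0194) and without vehicle pool 3. Members called lower thus numbered 2 with the replicate block, 2 without a filter, 2 with DESeq2 and 1 to 3 when a library or pool was left out. Of the genes with an adjusted p in these fits, 1.02%, 1.2%, 1.87% and 0.305% to 1.06% were called lower. Ndn and Peg3 were lower in all 18 and never called.

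Signs turned for genes near 0. Leaving out a library or pool gave -0.43 to 0.21 for Meg3 and -0.24 to 0.11 for Plagl1. Meg3 was at 0.15 with the replicate block, 0.20 without vehicle pool 2, 0.04 without vehicle pool 3, 0.04 without NAM/PN pool 1, 0.21 without pool 2 and 0.07 without pool 3. Plagl1 was at 0.03 without vehicle pool 2, 0.10 without vehicle pool 3, 0.03 without NAM/PN pool 2, 0.11 without pool 2 and 0.11 without pool 3.

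Other imprinted genes called numbered 0 with the replicate block and 0 to 1 when a library or pool was left out. Over all genes tested in those fits, 1.29% and 0.346% to 1.4% were called. Cdkn1c kept its sign in all 18 (-2.74 to -1.46) and lost its call in 9, among them without vehicle pool 4 (adjusted p 0.243) and without pool 4 (0.323). Hmga2 stayed higher in all 18 (0.71 to 0.83) and lost its call in 5, each without a library or pool, with an adjusted p of at most 0.136. Differentiation genes called lower numbered 7 to 12 when a library or pool was left out, where 0.305% to 1.06% of the genes tested in those fits were.

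Over all genes, 154 calls (120 lower, 34 higher) became 366 (231 and 135) without a filter and 388 (264 and 124) with DESeq2. Leaving out a library or pool gave 42 to 177 calls, 37 to 134 lower and 5 to 43 higher, with the fewest without pool 2. The replicate block moved no other call among the members. A fit without a library or pool has fewer samples, and the causes of the changed calls were not tested.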

Other observations

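Among imprinted genes outside the members' clusters, Gnas, which encodes the stimulatory G protein α subunit, was at 1681 to 1844 CPM with vehicle and at 839 to 1540 CPM with NAM/PN, so that the groups did not overlap (log2 fold change -0.43, adjusted p = 0.372 by edgeR after Benjamini-Hochberg correction). Its lowest value, 839 CPM, was in NAM/PN pool 4. Pon3, a paraoxonase gene of the Peg10 cluster, was at 13.3 to 24.7 CPM with vehicle and at 0 to 9.29 CPM with NAM/PN (log2 fold change -1.79, adjusted p = 0.468 in the same edgeR test). Kcnq1ot1, the noncoding RNA of the cluster that holds Cdkn1c, was at 88.9, 292, 263 and 65.7 CPM in vehicle pools 1 to 4 and at 258, 288, 330 and 142 CPM with NAM/PN, with overlapping groups (adjusted p = 0.782 in the same edgeR test, 0.203 with the replicate block). These genes were chosen after their values were seen.

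The fibroblast collagen gene Col1a1 was very uneven among NAM/PN libraries, from 3.27 to 1032 CPM, against 1.74 to 41.3 CPM with vehicle, and was not called (log2 fold change 4.97, adjusted p = 0.0709 in the same edgeR test). Its log2 fold change was between 3.39 and 7.61 when a library or pool was left out. It passed the threshold without vehicle pool 3 (adjusted p = 0.0194), NAM/PN pool 3 (0.0278), NAM/PN pool 4 (0.0161) or both libraries of pool 3 (0.00805), and also without a filter on low counts, all by edgeR after Benjamini-Hochberg correction.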
